A study of Mus musculus with 3 samples.

Results

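The cells described here are immature neutrophils of the mouse meninges, chosen by their RNA for the granule proteins *Camp* and *Ngp*. A droplet barcode counted as a cell when it held at least 500 UMIs (unique molecular identifiers, each standing for 1 captured RNA molecule), 174 to 4548 genes and under 8.3% of UMIs from mitochondrial genes. A cell was a member when *Camp* and *Ngp* together took at least 4% of its UMIs and it had fewer than 3 *Fcnb* UMIs or under 0.04% of its UMIs from *Fcnb*. The rule found 934 members among 7057 cells. They came from 3 libraries of male C57BL/6J mice aged 10 to 12 weeks, each library a pool of 4 mice run in its own lane of a 10x Genomics chip with 3′ version 2 chemistry. Home cage controls (HC) were unstressed and gave 2 of the libraries (HC1 and HC2, 8 mice). Chronic social defeat (CSD) gave the last, from mice defeated over 14 days. Scent marking, open field and, per the study, social interaction tests were used to find susceptible animals. Triplets of values follow the order HC1, HC2, CSD. The labels name no transgene or drug, and all cells had been sorted as live nucleated singlets (DAPI-negative, DRAQ5-positive). The meninges were peeled from brain and skull, so some marrow cells of the bone could be among them, and their part in these libraries was not tested. Because CSD is 1 pool, defeat and the pool cannot be told apart. Every p-value below sets CSD against the spread of the 2 HC pools and assumes that CSD pools vary alike.

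Neutrophils make their granule proteins in successive waves as they mature. The azurophil granule proteins, such as myeloperoxidase and elastase, are transcribed in promyelocytes. The specific granule proteins follow in myelocytes and metamyelocytes, under the control of the transcription factor C/EBP epsilon. The gelatinase granule proteins come later, and receptors and cytokines of circulating cells come last. *Camp* encodes the precursor of the antimicrobial peptide CRAMP, and *Ngp* encodes neutrophilic granule protein. *Ltf* encodes lactoferrin, an iron-binding protein, *Lcn2* encodes lipocalin 2, which binds bacterial siderophores, and *Chil3* encodes the chitinase-like protein Ym1. These 5 genes serve here as markers of immature neutrophils. *Ltf*, *Lcn2* and *Chil3* were higher in members than in mature neutrophils in every library. So were *Camp* and *Ngp*, but the rule separated these classes by them, so their difference was set in advance. Against preneutrophils 0 of the 5 were higher in every library and 3 were lower in every library.

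The promoters of the 5 marker genes are shown because these genes name the stage. Each window runs from 250 bases before to 50 bases after the RefSeq start on build GRCm38.p6, read 5′ to 3′ along the strand of the gene. Capitals mark TTGCNNAA on either strand (TTNNGCAA when read on the other), letters of the kind that C/EBP factors bind. The windows lie at chr9:109849407-109849706 (minus strand) for *Camp*, chr9:110419558-110419857 (plus strand) for *Ngp*, chr9:111019042-111019341 (plus strand) for *Ltf*, chr2:32387690-32387989 (minus strand) for *Lcn2* and chr3:106167515-106167814 (minus strand) for *Chil3*.
Camp: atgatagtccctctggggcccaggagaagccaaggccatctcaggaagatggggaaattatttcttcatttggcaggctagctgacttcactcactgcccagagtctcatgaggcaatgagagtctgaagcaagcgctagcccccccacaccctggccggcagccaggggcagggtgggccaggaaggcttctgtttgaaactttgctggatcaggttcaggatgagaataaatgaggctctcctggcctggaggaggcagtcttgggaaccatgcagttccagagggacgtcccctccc
Ngp: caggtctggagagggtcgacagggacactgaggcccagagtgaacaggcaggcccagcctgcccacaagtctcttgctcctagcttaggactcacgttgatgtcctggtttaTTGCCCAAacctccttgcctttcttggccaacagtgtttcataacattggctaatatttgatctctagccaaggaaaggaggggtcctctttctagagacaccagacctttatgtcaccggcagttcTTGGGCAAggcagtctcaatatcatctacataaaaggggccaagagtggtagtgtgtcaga
Ltf: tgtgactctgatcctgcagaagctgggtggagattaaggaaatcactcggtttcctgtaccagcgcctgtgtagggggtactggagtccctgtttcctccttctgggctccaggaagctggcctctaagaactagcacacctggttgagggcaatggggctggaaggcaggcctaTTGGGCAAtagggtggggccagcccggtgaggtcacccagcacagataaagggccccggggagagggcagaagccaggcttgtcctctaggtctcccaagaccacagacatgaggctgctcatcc
Lcn2: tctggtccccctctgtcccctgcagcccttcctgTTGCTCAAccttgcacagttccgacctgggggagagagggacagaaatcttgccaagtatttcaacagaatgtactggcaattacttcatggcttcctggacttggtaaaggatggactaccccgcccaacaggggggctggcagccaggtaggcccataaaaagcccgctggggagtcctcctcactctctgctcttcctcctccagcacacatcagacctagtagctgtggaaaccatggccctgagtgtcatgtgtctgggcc
Chil3: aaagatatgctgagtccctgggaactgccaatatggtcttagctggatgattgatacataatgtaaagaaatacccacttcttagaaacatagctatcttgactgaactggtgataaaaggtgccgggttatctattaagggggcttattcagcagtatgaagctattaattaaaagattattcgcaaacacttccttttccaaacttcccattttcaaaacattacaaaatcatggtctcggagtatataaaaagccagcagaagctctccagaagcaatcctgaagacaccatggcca
The motif was present in 3 of the 5 windows and in 10.8% of all 32851 RefSeq mouse windows of the same length. *Ngp* held 2 matches, whose first bases lie 138 and 11 bases before the start. *Ltf* held 1 match at 75 bases before the start, and *Lcn2* held 1 at 216 bases before the start. A second motif, GAGGAA, which on the other strand reads TTCCTC, of the kind that PU.1 binds, does not overlap any of these matches and was present in 2 of the 5 windows, *Ltf* and *Lcn2*, against 28.3% of all windows. Among the specific granule genes with a window, 3 of 10 held the first motif and 8 of 10 the second. The other lists held them too: 1 and 7 of 9 azurophil, 2 and 4 of 5 gelatinase and 3 and 7 of 17 late gene windows. These are matches of letters, not measured binding. In the GENCODE M21 annotation, *Camp* (chromosome 9, 109847379 to 109849617), *Ngp* (chromosome 9, 110419747 to 110423012) and *Ltf* (chromosome 9, 111019271 to 111042767) lie on the same chromosome, while *Lcn2* (chromosome 2, 32384633 to 32388252) and *Chil3* (chromosome 3, 106147554 to 106167564) lie elsewhere.

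Members differed in depth between the libraries. HC1 held 255 members with a median of 3815 UMIs each, HC2 held 232 with 3103.5, and CSD held 447 with 3760. The libraries themselves held 9891861, 8814690 and 10206236 UMIs in that order, of which the members held 1120411, 779969 and 1910453. HC2 stood apart: 56 of its members (24.1%) had under 1000 UMIs, against 5 in HC1 (1.96%) and 6 in CSD (1.34%). In those 56 cells *S100a8* and *S100a9*, the calprotectin genes that fill neutrophils, took a median of 19.9% of UMIs, against 26.9% in the deeper members of that library. Barcodes of at most 100 UMIs, which hold RNA free in the suspension and are called empty droplets below, took 24.1% of all UMIs in HC2, 7.87% in HC1 and 5.48% in CSD. No 2 members shared a barcode sequence across libraries, and 4 members shared one with a cell that was not a member.

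The label was checked against markers that the rule did not use. *Ltf*, *Lcn2* and *Chil3* each had a UMI in 97.6% to 100% of members of every library. T and NK cells, which should lack them, had one in 72.8% to 96.7%, at median depths of 2901, 3197 and 2367 UMIs, so these shares hold free RNA and levels are given instead. In counts per 1000000 UMIs (CPM), *Ltf* stood at 6219, 7562 and 8031 in members against 405, 597 and 656 in T and NK cells. *S100a8* and *S100a9* took a median of 31.0%, 25.6% and 30.4% of UMIs in HC1, HC2 and CSD, and no member fell below 6.36%. Genes of B, T and NK cells, which neutrophils should lack, gave 497, 690 and 673 UMIs over 16 genes, at 35.0%, 36.2% and 27.8% of their level in the empty droplets of the same library. That level is the measure of free RNA used below. None of the listed markers of other cell types was at 0, and the summed macrophage markers (*Apoe* the most abundant) stood at 34.2%, 40.0% and 21.1% of the empty-droplet level, the fibroblast markers (*Mgp*) at 18.5%, 24.5% and 8.0%, and the erythroid markers (*Hbb-bs*) at 37.2%, 23.1% and 17.9%. The summed monocyte markers stood higher, at 62.8%, 73.3% and 79.9%, through *Ly6c2*, the most abundant, which was at 126%, 132% and 153%. *Ccr2*, *Fn1*, *F13a1*, *Ms4a4c* and *Ctss* were at 11.5% to 41.8% and *Csf1r* at 22.8% to 62.4%.

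The rule cut through a continuum at its lower end. The 49 cells with *Camp* and *Ngp* at 3.5% to 4% of UMIs and the 53 members at 4% to 4.5% had pooled *Retnlg* levels of 31666 and 31782 CPM and *Ltf* levels of 3237 and 3388 CPM. At the *Fcnb* limit, 689 members had no *Fcnb* UMI, 220 had 1 or 2, and 25 had 3 or more at under 0.04%. These 25 had a median of 11180 UMIs, and their proliferation genes *Mki67* and *Top2a* stood at 349 CPM, as in the 211 *Fcnb*-expressing cells beyond the limit (349 CPM) and above the members with no *Fcnb* UMI (65.7 CPM). *Elane*, neutrophil elastase, did not follow: it stood at 82.1 CPM in the 25 cells, 90.8 CPM in members with no *Fcnb* UMI and 733 CPM in the cells beyond the limit. The cells beyond the limit are called preneutrophils below. These values are pooled over the libraries and carry no test.

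The members shared the specific granule program with preneutrophils and carried the gelatinase and late genes above them. They were set beside the preneutrophils (68, 27 and 116 cells) and beside mature neutrophils (529, 364 and 841 cells). Mature cells here had under 4% *Camp* and *Ngp*, at least 6% *S100a8* and *S100a9* and at least 2 UMIs over 8 genes. These were *Retnlg*, *Csf3r*, *Cxcr2*, *Mmp9*, *Il1r2*, *Clec4d*, *Msrb1* and *Hdc*, and all but *Mmp9* are on the late list. Their higher levels in mature cells are thus partly set by the selection. The rule separated these classes by measured RNA, so the levels are a description without a test. UMIs are counted at the 3′ end and are not divided by gene length, so levels are compared between classes and not between genes. Of 11 specific granule genes seen in over 15% of cells, 10 were higher in the members than in mature cells in every library, with a median ratio of 2.41, and 1, *Hp*, was lower in every library. Against preneutrophils 4 were higher and 2 lower in every library, with a median ratio of 1.09. Of 18 late neutrophil genes, 17 were lower than in mature cells in every library, with a median ratio of 0.391, while all 19 seen in over 15% of either class were higher than in preneutrophils, with a median ratio of 2.03.

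*Camp* itself was at 52151 CPM in HC1, 50542 CPM in HC2 and 51770 CPM in CSD, against 6630, 6533 and 5623 CPM in mature cells. *Ngp* was at 41329, 43318 and 52608 CPM in the members in the same order. Both were used by the rule, and members did not hold the most of them. Together they took a median of 12.6%, 12.8% and 13.4% of UMIs in preneutrophils. In members the median was 8.85%, 8.97% and 10.1%. *Ltf* reached 6219, 7562 and 8031 CPM, against 905, 1187 and 957 CPM in mature cells and 4848, 7921 and 7795 CPM in preneutrophils. *Lcn2* reached 11060, 11753 and 14770 CPM, and *Chil3* 4321, 4487 and 5257 CPM. *Chil3* was highest in preneutrophils (7287, 8457 and 9730 CPM) and lowest in mature cells (897, 779 and 1114 CPM), without overlap between the classes. *Ltf* and *Lcn2* did not separate members from preneutrophils.

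The gelatinase genes were already on. *Mmp8*, neutrophil collagenase, stood at 1215, 1571 and 1568 CPM in the members of HC1, HC2 and CSD, at 184, 245 and 313 CPM in preneutrophils and at 1647, 2051 and 2259 CPM in mature cells. *Mmp9*, gelatinase B, stood at 585, 606 and 641 CPM, against 113, 144 and 150 CPM in preneutrophils. All 4 gelatinase genes seen in over 15% of either class were higher in members than in preneutrophils in every library, with a median ratio of 3.83. Preneutrophils and members did not overlap for either gene. The late genes were partly on, and *Retnlg* and *Cxcr2* were among the genes used to choose the mature cells. *Retnlg*, a resistin-like secreted protein, stood at 8633, 11597 and 12551 CPM in members, between preneutrophils (2760, 4195 and 4403 CPM) and mature cells (35381, 42465 and 46803 CPM). *Cxcr2*, the chemokine receptor that draws neutrophils out of marrow, was at 99.1, 117 and 113 CPM in members against 386, 402 and 467 CPM in mature cells. After every cell was thinned to 500 UMIs, *Cxcr2* was seen in 5.88%, 5.17% and 6.04% of members, in 21.9%, 20.9% and 22.8% of mature cells and in 0.993%, 0.472% and 0.362% of T and NK cells, which should lack it. Without thinning the shares were 32.5%, 28.0% and 34.0% in members and 4.64%, 6.13% and 3.62% in T and NK cells. *Il1b*, which encodes the cytokine interleukin 1 beta, was at 74.1, 124 and 80.6 CPM in members, below the empty droplets (194, 233 and 245 CPM), while mature cells had 831, 815 and 893 CPM.

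**Figure D1:**
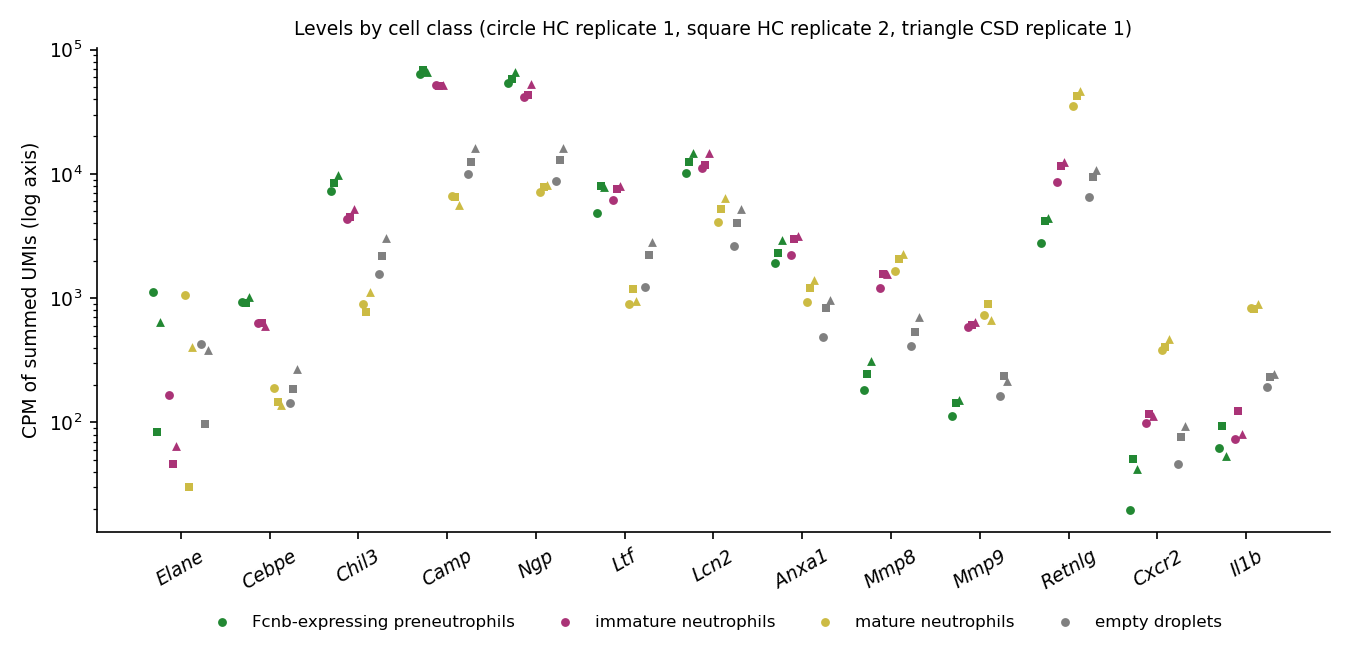
Levels of 13 genes in CPM of summed UMIs (log axis), for preneutrophils, immature neutrophils, mature neutrophils (S100a8 and S100a9 at least 6% of UMIs) and empty droplets, with 1 point for each library. In the immature cells Chil3, Camp and Ltf stand far above the mature cells, Mmp8 and Mmp9 stand near them, and Il1b stands below the empty droplets.

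The azurophil genes were lower in members than in preneutrophils, in every library for 9 of the 10. *Mpo*, myeloperoxidase, was at 82.1, 10.3 and 21.5 CPM and *Elane* at 165, 46.2 and 64.9 CPM, below the empty droplets in every library (224, 44.6 and 102 CPM for *Mpo*, 428, 96.3 and 381 CPM for *Elane*). *Cd63*, a membrane protein gene and the most abundant of the list, was at 573, 654 and 627 CPM in members, 99.6%, 157% and 136% of its empty-droplet level. *Cebpe*, which encodes C/EBP epsilon, was at 626, 627 and 600 CPM in members, 934, 912 and 1028 CPM in preneutrophils and 189, 147 and 137 CPM in mature cells, without overlap between the classes. *Spi1*, which encodes PU.1, was at 480, 538 and 550 CPM, between the other classes within each library. *Gfi1*, a repressor needed for granulopoiesis, gave 2.68 to 6.80 CPM in members. Of 19 cell cycle genes, all were lower in members than in preneutrophils in every library, with a median ratio of 0.335. At 500 UMIs per cell, 16.1%, 21.98% and 14.1% of members carried a UMI of 13 strict cell cycle genes, against 41.2%, 44.4% and 48.3% of preneutrophils and 15.2%, 20.3% and 19.9% of T and NK cells. Without thinning the shares were 52.2%, 55.2% and 56.6% in members and 58.3%, 58.5% and 54.7% in T and NK cells. The thinned shares of members lay near those of T and NK cells, which can themselves divide, and above those of mature cells (9.26%, 9.89% and 12.0%), and 7 of 7 cell cycle genes seen in over 15% of either class were higher in members than in mature cells in every library, with a median ratio of 1.33.

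The members varied among themselves along the same axis. They were split by the *Camp* and *Ngp* share of UMIs into 4% to 8%, 8% to 12%, and 12% and over, and levels were taken over UMIs other than *Camp* and *Ngp*. In each of the 3 libraries *Chil3* was higher from bin to bin, going from 2228 to 8466 CPM in HC1, from 2644 to 8512 CPM in HC2 and from 2672 to 8786 CPM in CSD. The 3 libraries lay close together in every bin. *Cebpe* went from 379, 426 and 356 CPM to 1003, 905 and 992 CPM, and *Serpinb1a*, a serpin that protects neutrophils from their own proteases, from 389, 430 and 496 CPM to 792, 935 and 1089 CPM. *Retnlg* went down from 18096, 21111 and 27105 CPM to 3466, 4704 and 5613 CPM, and *Mmp8* from 2158, 2300 and 2610 CPM to 501, 1010 and 926 CPM. *Cxcr2* went down from 210, 221 and 221 CPM to 36.3, 52.8 and 56.8 CPM. Over lists, counting genes with at least 100 UMIs, 8 of 11 specific granule genes and 11 of 13 cell cycle genes were higher in the top bin in all 3 libraries and none lower in all 3, while 16 of 19 late genes and 3 of 4 gelatinase genes were lower in all 3 and none higher. The bins were cut on the genes of the rule, so these are descriptions. Depth differed with the bin too: median UMIs per cell were 3100, 2588 and 3140 in the lowest bin and 5064, 4973.5 and 4425 in the highest. Its part in the result was not tested.

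**Figure D2:**
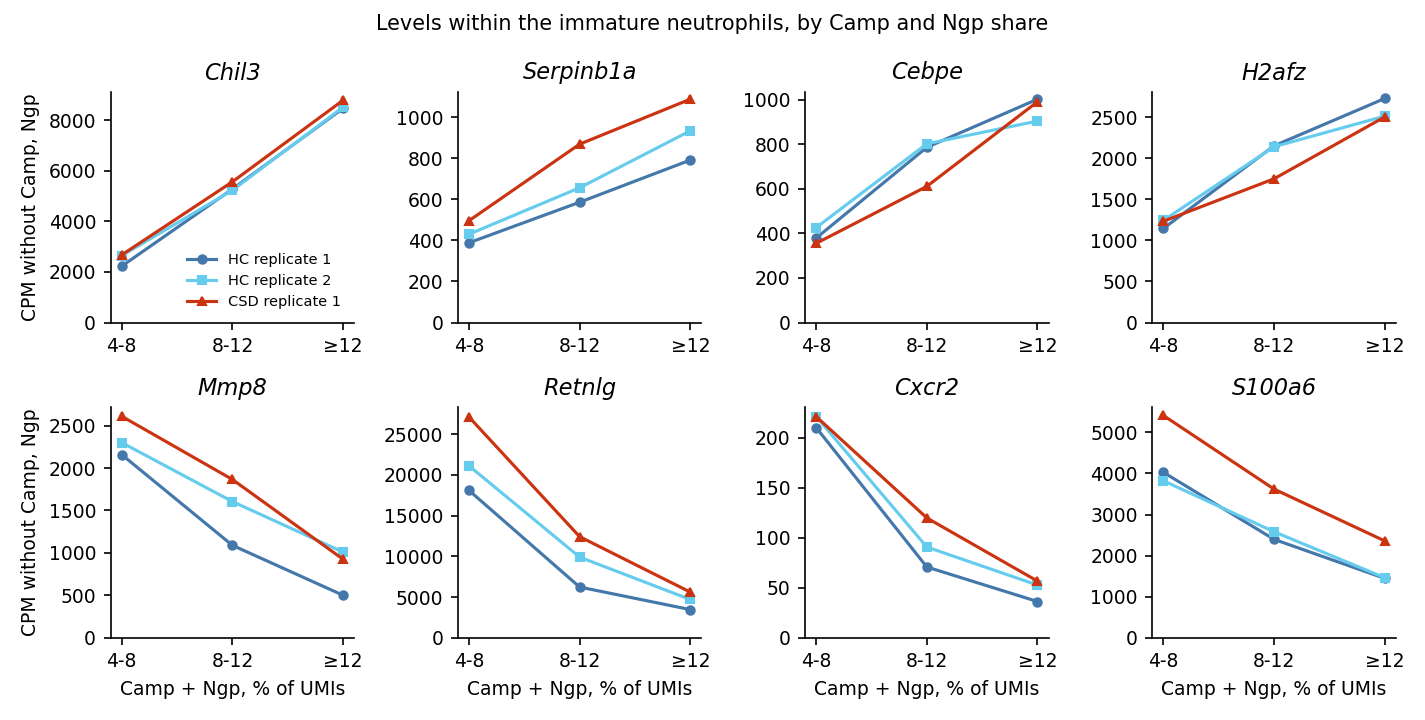
Levels of 8 genes (CPM over UMIs other than Camp and Ngp) in members with 4 to 8%, 8 to 12% and at least 12% of UMIs from Camp and Ngp, with 1 line for each library. Chil3, Serpinb1a, Cebpe and H2afz go up and Mmp8, Retnlg, Cxcr2 and S100a6 go down with the Camp and Ngp share in all 3 libraries.

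Members were a larger share of cells in the CSD library. They made up 255 of 2599 cells in HC1 (9.81%, exact Clopper-Pearson 95% interval 8.69% to 11.02%), 232 of 1702 in HC2 (13.6%, 12.0% to 15.4%) and 447 of 2756 in CSD (16.2%, 14.9% to 17.6%). CSD was above both HC libraries by 4.498 percentage points over their mean of 11.7% ± 2.70 (SD, n = 2), by 2.59 points over HC2 alone and by 6.41 points over HC1 alone. The intervals cover counting error only, and those of HC2 and CSD overlap. No test was made: 1 library can be set against 2 in only 3 ways, so the smallest p of an exact permutation test is 0.333. With at least 1000 UMIs per cell, which removed the shallow members of HC2, the shares were 10.6%, 12.3% and 17.7%. As a share of all neutrophils, members were 25.7%, 33.7% and 28.3% with mature cells taken at 3% *S100a8* and *S100a9*, and 29.9%, 37.2% and 31.8% with mature cells at 6%, with CSD between the HC libraries both times.

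Within the members, the CSD library held more cells at the top of the *Camp* and *Ngp* range. Members with at least 12% of UMIs from *Camp* and *Ngp* were 10.6% of members in HC1, 12.9% in HC2 and 28.9% in CSD, and the median share was 8.85%, 8.97% and 10.1%. The balance between the pair also differed. *Ngp* made up 44.2% of the UMIs of *Ngp* and *Camp* in HC1 (exact 95% interval 43.9% to 44.5%), 46.2% in HC2 (45.8% to 46.5%) and 50.4% in CSD (50.2% to 50.6%). The same order held in mature cells, at 51.8%, 54.6% and 59.0%. In preneutrophils CSD was again highest, at 49.9% against 45.8% and 45.6%. In the empty droplets it was not: there *Ngp* made up 46.8%, 50.9% and 49.6%. As the rule used both genes, these are descriptions without a test.

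**Figure D3:**
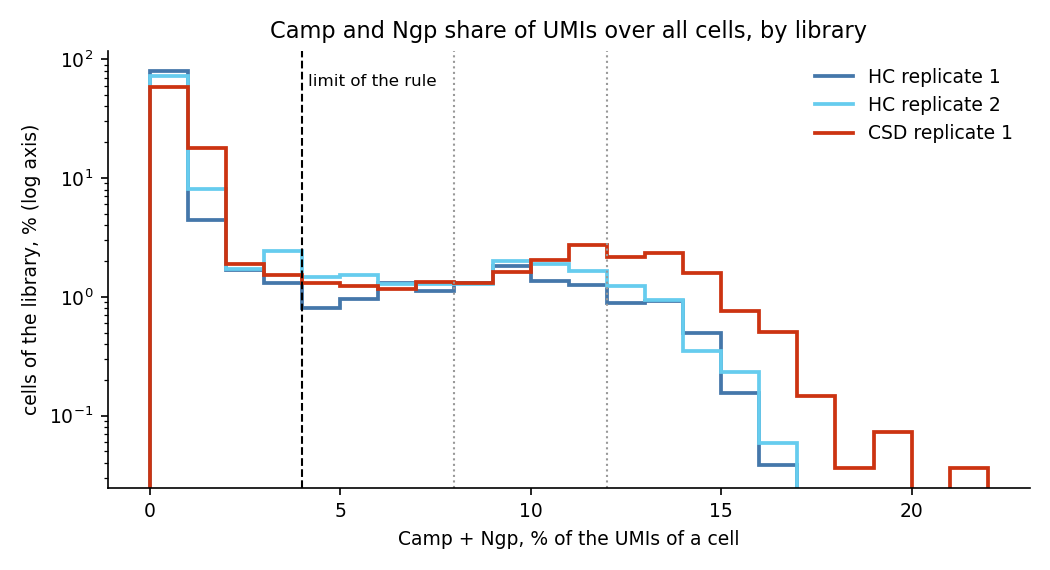
Share of cells (% of the library, log axis) by the Camp and Ngp share of UMIs, in steps of 1%, for all 7057 cells, preneutrophils included. The dashed line is the 4% limit of the rule and the dotted lines are the limits of 8% and 12%. From 12% to 17% the CSD library exceeds both HC libraries in each step, and no HC cell lies above 17%.

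**Figure D4:**
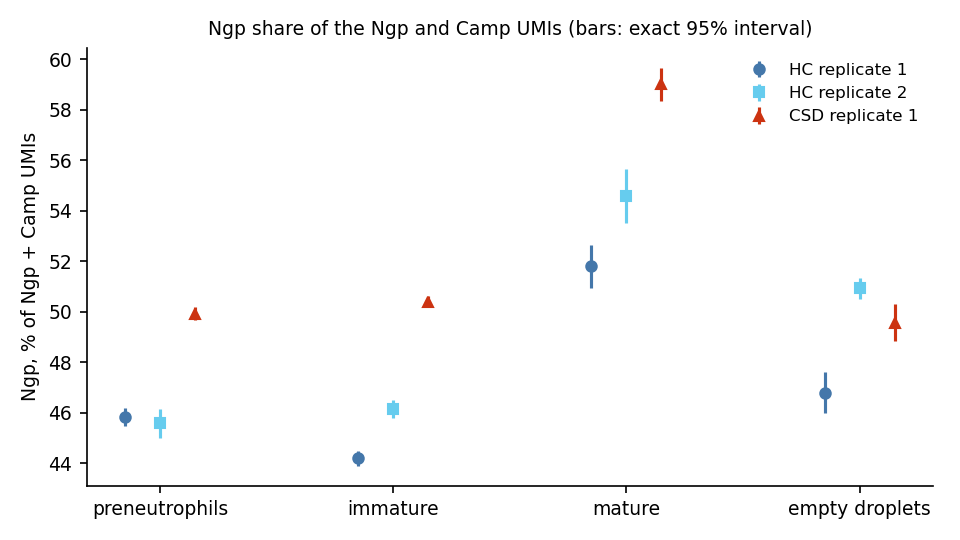
Ngp as a percentage of Ngp and Camp UMIs in preneutrophils, immature neutrophils, mature neutrophils and empty droplets, with 1 point for each library and exact 95% intervals (counting error only). CSD is highest in the 3 cell classes and lies between the HC libraries in the empty droplets.

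Next, members of CSD were compared with members of HC gene by gene, the question being which genes of this stage differ after repeated defeat. UMIs were summed per library over the members, and edgeR's quasi-likelihood test was fitted over 1749 genes seen in over 15% of members, without *Camp*, *Ngp* and *Fcnb*. Fold changes rest on TMM-scaled UMIs of the tested genes, while printed CPM are of all UMIs of the members. At a Benjamini-Hochberg adjusted p of 0.05, 34 genes (1.94% of those tested) changed, 12 higher (0.686%) and 22 lower (1.26%) in CSD. Only 4 of the 34 stood above the empty-droplet level in every library, *Lrg1*, *Hp* and *Ifitm6* among the rises and *Thbs1* among the falls. *Tspo*, named after its values were seen, stood at that level (93.5% to 103% of it), and the other 29 stood below it in every library. Of the 496 genes tested that were above the empty-droplet level in every library, 0.806% changed, against 3.23% of the 897 that were below it. The part of free RNA in single genes was not tested beyond the subtraction described with the alternatives.

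The 3 rises above the empty-droplet level were as follows. *Lrg1* (chromosome 17, 56119678 to 56122001) encodes leucine-rich alpha-2 glycoprotein, an acute-phase protein that neutrophils store in granules. It was at 502 CPM in HC1, 601 CPM in HC2 and 1140 CPM in CSD, against 146, 214 and 515 CPM in the empty droplets, and rose by a log2 fold change of 1.14 ± 0.16 (SE; edgeR adjusted p = 0.00067). *Hp* (chromosome 8, 109575128 to 109579172) encodes haptoglobin, which binds free haemoglobin. It was at 1396, 1617 and 2845 CPM, against 632, 960 and 1645 CPM in the empty droplets, and rose by 1.01 ± 0.15 on the log2 scale (edgeR adjusted p = 0.0012). In both genes CSD lay far above HC libraries that differed little from each other. *Ifitm6* (chromosome 7, 141015699 to 141017924), of the interferon-induced transmembrane family, is the last of these rises, chosen after its values were seen. It was at 2439, 2612 and 4275 CPM, against 581, 814 and 1409 CPM in the empty droplets, and rose by 0.85 ± 0.15 on the log2 scale (edgeR adjusted p = 0.0042). At 500 UMIs per cell it was seen in 69.4%, 65.5% and 87.7% of members and in 9.93%, 11.3% and 15.9% of T and NK cells, and without thinning in 98.4%, 85.8% and 99.8% and in 47.0%, 50.9% and 66.3%. It was higher in members than in mature cells (1013, 1155 and 1957 CPM) in every library. Each of the 3 kept its direction in all 11 alternative fits and passed the threshold in 6 of them, with adjusted p from 9.6e-13 to 0.80 for *Lrg1*, from 4.0e-13 to 0.80 for *Hp* and from 5.0e-11 to 0.80 for *Ifitm6*, and each kept its direction when either HC library was left out.

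*Thbs1* (chromosome 2, 118111876 to 118127133), thrombospondin 1, was the only 1 of the 22 falls above the empty-droplet level in every library, and was likewise chosen after its values were seen. It was at 93.7 and 154 CPM in the HC libraries and 45.5 CPM in CSD, against 32.1, 41.4 and 26.8 CPM in the empty droplets. The log2 fold change was -1.32 ± 0.27 (edgeR adjusted p = 0.010) and passed in 4 of 11 alternative fits (adjusted p from 3.0e-05 to 0.80). *Thbs1* was seen in 29.8%, 30.6% and 14.5% of members, so it exceeded 15% of members through the HC libraries alone. A lower CSD value was thus built into its selection, and its p-value does not test the fall.

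The other named rises and falls stood below the empty-droplet level in the members. The steepest falls were *Mgp* (336, 351 and 33.0 CPM in HC1, HC2 and CSD), which encodes a matrix protein that inhibits calcification, *Dcn* (80.3, 100 and 17.3 CPM), which encodes decorin, and *Sparc* (99.1, 85.9 and 20.4 CPM), which encodes osteonectin. These are fibroblast genes, with log2 fold changes of -3.29 ± 0.21, -2.27 ± 0.29 and -2.10 ± 0.28. In the empty droplets *Mgp* was at 1686, 1353 and 572 CPM and *Dcn* at 672, 488 and 139 CPM, so the free RNA of the CSD library also held less of them. The macrophage genes *Trem2*, *C1qc* and *Apoe* fell by 1.62, 1.51 and 1.51 on the log2 scale. The mitochondrial gene *mt-Nd3* and *Rgs10*, a regulator of G-protein signalling, were lower by 1.39 and 1.61. *Trem2*, *mt-Nd3* and *Rgs10* were seen in 14.3%, 12.1% and 10.1% of CSD members and exceeded 15% of members through the HC libraries alone. A lower CSD value was thus built into their selection. For *Apoe* the HC libraries differed strongly, at 2271 and 923 CPM against 536 CPM in CSD. All 5 MHC class II genes tested fell, by 1.14 to 1.31 on the log2 scale, for example *H2-Ab1* from 874 and 783 CPM to 353 CPM. The summed list stood at 23.4%, 22.8% and 19.9% of its empty-droplet level.

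Among the rises, *Hbb-bs*, *Hbb-bt* and *Hba-a1* encode globins. *Hbb-bs* was at 919, 1509 and 2423 CPM in the members and at 2473, 6278 and 12540 CPM in the empty droplets, in the same order of libraries. The globins and the fibroblast genes thus moved in the members in the direction in which they differed in the empty droplets, as did *Lrg1*, *Hp*, *Ifitm6* and *Thbs1*. With the empty-droplet profile subtracted, these 4 had log2 fold changes of 0.89 ± 0.17, 0.82 ± 0.16, 0.63 ± 0.16 and -1.65 ± 0.35, and none passed (edgeR adjusted p = 0.069, 0.069, 0.17 and 0.092). In that setting *Hbb-bs*, *Hbb-bt* and *Hba-a1* reversed direction, and the median of the erythroid genes was -7.59. *Hbb-bs* stood at 37.2%, 24.0% and 19.3% of its empty-droplet level, and the subtraction removed 35.0%, 36.2% and 27.8%. Nothing was thus left of it in HC2 and CSD, nor of *Hbb-bt* and *Hba-a1*, so these values reflect the floor and do not measure a fall. *Ifitm1*, an antiviral membrane protein gene, rose by 1.92 ± 0.27 on the log2 scale (51.8, 28.2 and 149 CPM, edgeR adjusted p = 0.00060). *Wfdc17*, a secreted protease inhibitor gene, rose by 1.08 ± 0.26 (153, 74.4 and 234 CPM, edgeR adjusted p = 0.043). Both stood below the empty droplets, with HC libraries that differed by a log2 ratio of -0.97 and -1.15. *Ifitm1* passed in 4 and *Wfdc17* in 3 of 10 alternative fits. With either HC library left out, the values were 1.55 and 2.53 for *Ifitm1* and 0.65 and 1.79 for *Wfdc17*.

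*Prss34* and *Mcpt8*, the latter named after its values were seen, encode proteases of basophils and rose by 1.802 ± 0.18 and 0.93 ± 0.19 on the log2 scale, and 1 cell held much of both. A CSD member with 11902 UMIs and 7.46% of them from *Camp* and *Ngp* held 497 of the 842 *Prss34* UMIs of the CSD members and 153 of the 316 *Mcpt8* UMIs, while no other CSD member held more than 5 and 4. It was not among the top 5% of doublet scores that Scrublet gave. Without this cell, a setting chosen after its values were seen, *Prss34* was at 0.52 ± 0.18 and *Mcpt8* at -0.01 ± 0.22 on the log2 scale and neither passed the threshold (edgeR adjusted p = 0.22 and 0.99, over alternatives from 2.3e-21 to 0.80 and from 7.1e-05 to 1.0).

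**Figure D5:**
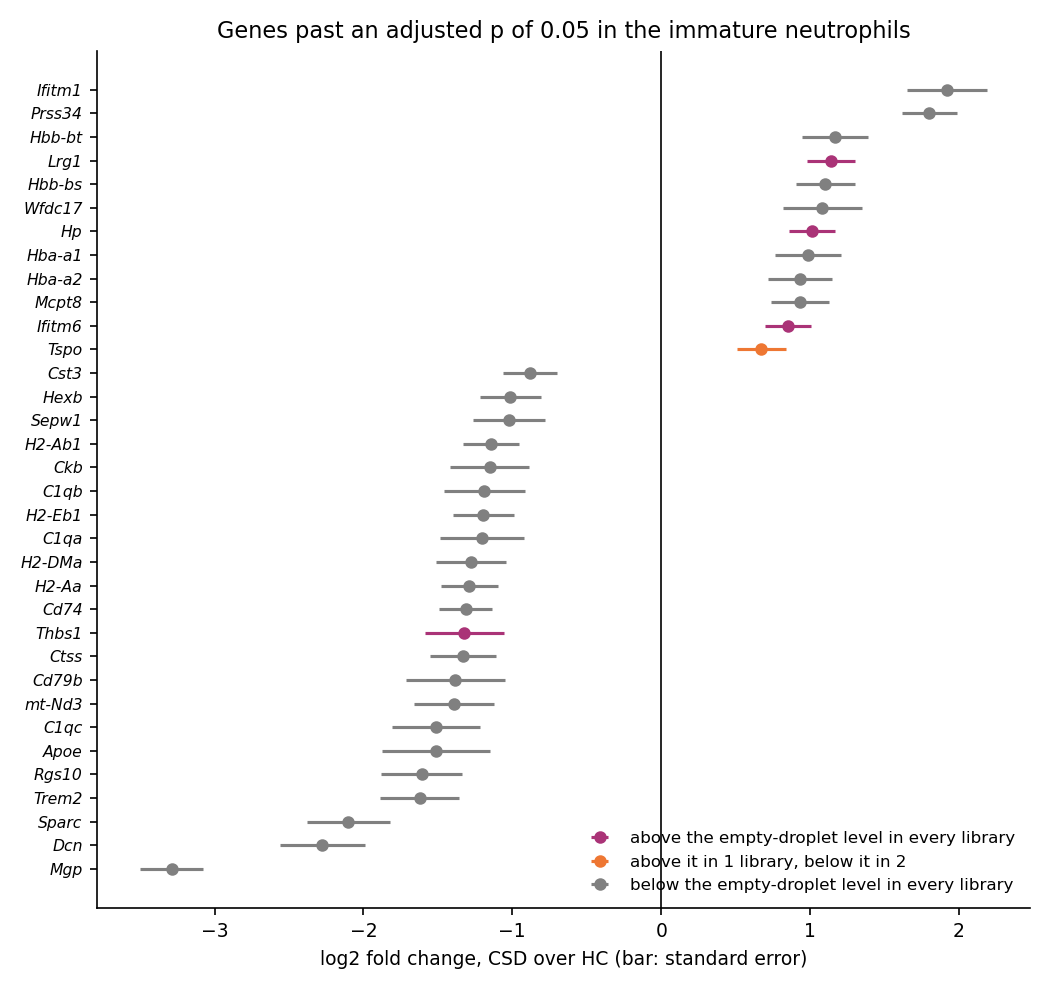
Log2 fold change of CSD over HC with its standard error for the 34 genes past an adjusted p of 0.05 (edgeR) in the immature neutrophils. Lrg1, Hp, Ifitm6 and Thbs1 stand above the empty-droplet level in every library, Tspo stands above it in 1 and below it in 2, and the other 29 stand below it.

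By list, few genes of the members' own program passed the test, and the counts stand beside the 0.686% of all genes tested that passed as higher and the 1.26% that passed as lower. All 3 tested marker genes were higher in CSD than in both HC libraries without passing, with log2 fold changes of 0.46 ± 0.16 for *Lcn2*, 0.35 ± 0.15 for *Chil3* and 0.32 ± 0.16 for *Ltf* (edgeR adjusted p = 0.20, 0.35 and 0.42). The CSD members lay more often in the top *Camp* and *Ngp* bin, where these genes were higher. The part of this in the rises was not tested, and the bins were cut on the genes of the rule. Within bins, *Ltf* in CSD lay between the HC libraries in the lowest bin (5198, 6358 and 5904 CPM) and in the highest (8698, 11233 and 10997 CPM) and above both in the middle bin (7337, 8653 and 9288 CPM), *Chil3* in CSD was above both by little (5276, 5227 and 5563 CPM in the middle bin), and *Lcn2* was above both in every bin (13018, 13472 and 16291 CPM in the middle bin). Of 11 specific granule genes, 9 had positive values and 1 (*Hp*) passed, with a median log2 fold change of 0.32. The median was 0.00 for all genes tested, but 0.19 for the 496 above the empty-droplet level in every library (384 with positive values) and -0.14 for the 897 below it (279 with positive values), so that list medians and counts of positive values near those of the 496 are not particular to a list. Of 18 late genes, 12 had positive values and 0 passed, with a median of 0.18. The gelatinase list (4 genes, 0 passed) had a median of 0.14, and the NADPH oxidase list (6 genes, 0 passed), which makes reactive oxygen, had 0.24. Of the 26 actin polymerization genes, 23 had positive values and 0 passed, with a median of 0.22. Of 9 interferon-stimulated genes, 5 had positive values and 2 passed, *Ifitm1* and *Ifitm6*, with a median of 0.38 (0.21 without HC1). Interferon signalling is a theme the study drew from these samples, so this list is not independent evidence of a direction. The cell cycle list (7 genes, 0 passed) had a median of 0.10, and the granulocyte transcription factors (6 genes, 0 passed) had -0.22, with *Cebpe* at 0.03 ± 0.17. Of 12 glucocorticoid response genes, 6 were tested, 3 had positive values and 0 passed, with a median of 0.04. Of 6 S100 genes, 4 had positive values and 0 passed (median 0.19), and of 5 stefin and WAP protease inhibitor genes all had positive values and 1, *Wfdc17*, passed (median 0.43). The retention and egress receptors (6 genes, 0 passed) had a median of 0.18, and the 4 azurophil genes tested (0 passed) had 0.09. With the empty-droplet profile subtracted, the medians were nearer to 0 for the markers (0.09), the specific granule genes (0.09), the late genes (0.02), the NADPH oxidase (0.05), S100 (0.08), retention (0.09) and actin (0.14) lists and the transcription factors (-0.07), farther from 0 for the interferon-stimulated (0.49) and glucocorticoid response (0.43) genes, and negative for the gelatinase (-0.17), azurophil (-1.38) and cell cycle (-0.13) lists. One HC library decided the size or the direction of several medians. Without HC1 they were 0.05 for the gelatinase list, 0.47 for the azurophil list, -0.11 for the glucocorticoid list and -0.46 for the transcription factors, and without HC2 they were 0.06 for the S100 list, -0.16 for the azurophil list, -0.03 for the cell cycle list, 0.19 for the glucocorticoid list and -0.10 for the transcription factors. When every detected gene was fitted and all list genes with at least 20 UMIs were taken, the scaling moved the median of the 1749 genes to 0.20, the interferon-stimulated median was 0.23 over 24 genes, and that of the transcription factors turned to 0.12. With *Camp* and *Ngp* at 6% the cell cycle median was 0.01 and the glucocorticoid median 0.10. Among all 1749 genes, CSD lay above both HC libraries in 37.6% and below both in 35.7%.

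The cytosolic ribosomal protein genes made up the longest list, in which 77 of 79 had negative values and 72 were below both HC libraries, with a median of -0.32, and 0 passed. The mitochondrial transcripts, 10 of 10 with negative values, had a median of -0.59, and 1 (*mt-Nd3*) passed. In the members, ribosomal transcripts took a median of 8.0%, 7.71% and 5.79% of UMIs per cell in HC1, HC2 and CSD, and mitochondrial transcripts 0.867%, 0.931% and 0.611%. In both, CSD lay below HC libraries that were close to each other. In T and NK cells CSD lay between the HC libraries for the ribosomal share (32.8%, 29.6% and 32.0%) and below both for the mitochondrial share (2.09%, 2.23% and 2.03%). In mature neutrophils CSD was below both for the ribosomal share (8.53%, 7.67% and 5.90%) and for the mitochondrial share (0.694%, 0.671% and 0.493%).

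The marker lists of other cells are set beside the 0.686% of all genes tested that passed as higher and the 1.26% that passed as lower. All 5 macrophage genes tested fell (median -1.51), as did all 3 fibroblast genes (median -2.27) and all 5 MHC class II genes (median -1.28). All 4 erythroid genes rose (median 1.04). With the empty-droplet profile subtracted, the erythroid median turned to -7.59 (3 genes) and the B cell median from -1.28 to 3.47 (3 genes). The macrophage median was then -8.19 (4 genes), and the fibroblast and MHC class II lists had no median. In CSD the subtraction left nothing of the erythroid and macrophage genes tested, so their medians reflect the floor. The amount subtracted was set from the B, T and NK cell genes themselves, so the B cell value does not measure a CSD difference. The fibroblast genes exceeded 15% of members through the HC libraries alone: *Mgp*, *Dcn* and *Sparc* were seen in 12.8%, 6.94% and 7.83% of CSD members and in 22.8% to 71.4% of members of the HC libraries, so that a lower CSD value was built into their selection. The same holds for *Trem2* (14.3% of CSD members) among the macrophage genes and for *H2-DMa* (14.99%), whose value is the MHC class II median. Of the 22 falls, 10 in all were seen in under 15% of CSD members, *Thbs1*, *mt-Nd3* and *Rgs10* among them. None of the 12 rises was at or under that share in both HC libraries. Without HC1 the macrophage median was -0.69, and without HC2 that of the 3 B cell genes was -0.51, against -1.28. Of the 3 B cell genes 1, *Cd79b*, fell, of 2 monocyte genes 1, *Ctss*, fell, and the 1 gene of T and NK cells did not pass.

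Whether the difference of CSD from HC was unequal in members and mature cells was tested as an interaction over 6 sums, with the library as a block. Here mature cells needed 3% of UMIs from *S100a8* and *S100a9* (669, 429 and 1016 cells). Of 1772 genes, 8 passed (0.451%), and they were the 4 globin genes, *Dcn*, *Prss34*, *Wfdc17* and *Hist1h2ap*, all of which stood below the empty-droplet level in the members of every library. One of them was *Wfdc17*, whose CSD difference was lower in members by 1.45 ± 0.26 on the log2 scale (edgeR adjusted p = 0.0014). This value reversed with the empty-droplet profile subtracted, and it passed neither then nor by DESeq2. With mature cells at the 6% limit *Wfdc17* was at 230, 174 and 1756 CPM in mature cells and at 153, 74.4 and 234 CPM in members. *Lrg1*, *Hp* and *Ifitm6* were not among the 8, with interaction values of -0.73 ± 0.26, 0.09 ± 0.31 and -0.03 ± 0.32, although *Lrg1* was among the 19 genes that passed with mature cells at the 6% limit. In mature cells at the 6% limit they were higher in CSD as well, by 2.02 ± 0.24, 0.98 ± 0.22 and 0.95 ± 0.23 on the log2 scale, in an edgeR fit in which 3.55% of genes passed. These fits share the libraries, so free RNA and pool are the same in both.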

How the data were processed

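Per the labels and the study's methods, the authors sorted live nucleated singlets from meninges pooled over 4 mice, captured them with 3′ version 2 chemistry and counted UMIs with Cell Ranger 2 on mm10, as the submitters' processing notes name them. The deposited counts are whole numbers for every barcode and 27998 genes, without cell calling or normalization; 56 symbols stand for more than 1 gene. Libraries were read from the number that ends each barcode, taken as the group number in the labels. Members were selected by the stated limits, and the members and the gene lists were chosen with earlier results of these data known. CPM are taken over all UMIs of a summed class.

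Summed UMIs were tested with edgeR 4.0.16 (glmQLFit, glmQLFTest, TMM, two-sided, 1 residual degree of freedom) in R 4.3.3, with library sizes taken over the tested genes. The CSD spread was taken to equal that of HC, as CSD is 1 library. Genes named singly are the markers, the 8 largest rises and 8 largest falls among called genes with CSD beyond both HC libraries, the genes called in the interaction and members of the stated lists; *Ifitm6*, *Thbs1*, *Tspo* and *Mcpt8* were named after their values were seen. DESeq2 1.42.0, RLE scaling, other filters on genes, cells and the rule, subtraction of the empty-droplet profile, thinning, Scrublet (scanpy 1.11.5) and leaving out libraries were alternatives. Mature cells at the 6% limit served for the levels by class, a choice made after the values were seen. The edgeR and DESeq2 fits of both comparisons as reported were tested on simulated data; the other fits were not. Promoters are RefSeq windows and gene positions are GENCODE M21, both on GRCm38.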

Additional observations from a re-analysis of the deposited data

Results flagged for a closer look

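The CSD difference of 8 genes differed between immature and mature neutrophils in the interaction test of edgeR at an adjusted p of 0.05 (Benjamini-Hochberg, 6 sums, library as a block). On the log2 scale the CSD difference in immature cells was lower by 2.14 for *Dcn* (value -2.14), by 1.45 for *Wfdc17* (-1.45), by 1.13 for *Hist1h2ap* (-1.13), by 1.85 for *Hba-a1* (-1.85), by 1.78 for *Hbb-bt* (-1.78), by 1.82 for *Hbb-bs* (-1.82) and by 1.87 for *Hba-a2* (-1.87), and it was higher by 1.45 for *Prss34*. *Dcn* was at 101.2, 95.4 and 19.3 CPM in mature cells at the 6% limit and at 80.3, 100 and 17.3 CPM in immature cells, and with that limit its difference was 0.04. *Hist1h2ap* belongs to a family of near-identical histone genes, so its counts are uncertain, and the HC libraries differed in it, at 576 and 149 CPM in immature cells. *Prss34* rests on a single CSD cell, without which its difference was 0.17. *Hbb-bs* was at 4480, 1932 and 21857 CPM in mature cells at the 3% limit and at 912, 1944 and 4798 CPM at the 6% limit, where its difference was -0.76. The *Wfdc17* difference reversed with the empty-droplet profile subtracted, and it passed neither then nor by DESeq2. Without HC2 the differences of the 4 globin genes were between -0.92 and -0.72, and without HC1 between -3.06 and -2.74. The part of free RNA and of other cells within the 3% limit was not tested.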

How the results depend on the processing

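The count of 34 changed genes depended on the setting. It was 6 by DESeq2 (1 higher and 5 lower, against 12 and 22), 16 with RLE scaling, 157 of 13807 with every detected gene, 5 with the empty-droplet profile subtracted (19 of the 34 could be tested, and *Prss34* and *Wfdc17* passed in both), 10 of 230 when genes whose T and NK cell level reached 0.5 of the members' were left out, 10 with *Camp* and *Ngp* at 6%, 1 (*Mgp*) without the *Fcnb* condition, 56 with at least 1000 UMIs (all 34 among them), 2 (*Mgp* and *Prss34*) with the Scrublet top 5% removed, and 0 by edgeR after thinning to 500 UMIs, where 96 genes had an unadjusted p under 0.05 (225 in the reported fit, 40 by DESeq2). It was 29, 28 of them among the 34, without the member richest in *Prss34*. The interaction count of 8 was 0 by DESeq2 (8 at an unadjusted p under 0.05), 15 with every detected gene, 19 with mature cells at 6%, 1 with *Camp* and *Ngp* at 6%, 0 after subtraction (139 at an unadjusted p under 0.05) and 5 without the member richest in *Prss34*. The cause of these changes was not tested, beyond the smaller number of genes, UMIs or cells in some. Values reversed with the profile subtracted for *Hbb-bt* (-7.55), *Hbb-bs* (-8.25) and *Hba-a1* (-7.59), and for the interaction of *Wfdc17* (1.00). The subtraction left nothing of these globins in HC2 and CSD, so their values reflect the floor. The interaction of *Dcn* also reversed, to 0.045, with mature cells at 6%. Of 227 values of named genes over the alternatives, 224 kept their direction, 82 no longer passed the threshold, 3 newly passed it and 3 reversed; *Mcpt8* is not among them. Of 64 values of the 8 interaction genes, 62 kept their direction, 19 also kept their side of the threshold, 27 no longer passed, and 16, with either HC library left out, had no test. The excess of the CSD share over the HC mean, 4.498 points, was -1.40 points of all neutrophils, -1.75 with mature cells at 6%, and 2.59 to 6.41 when an HC library was left out; the number of lists with a positive median was 14, and 12 to 13 then. No paired analysis was possible, as CSD is 1 pool and the labels pair no HC pool with it.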
